A study of Mus musculus with 13 samples.

Results

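The genes described here are those of the interferon response and of antigen presentation in a series of RNA sequencing libraries that followed mouse fibroblasts through chemical reprogramming. A gene was taken when its symbol began with Ifi, Isg, Oas or H2-, when it was an Irf, Gbp, Stat, Mx or Tap symbol with a number, or when it was Psmb8, Psmb9 or B2m. This gave 73 of the 15176 genes used, of which 21 were H2- genes, 11 Ifi, 10 Oas, 10 Irf, 7 Stat, 6 Gbp, 3 Isg and 2 Tap genes, and 3 were named singly. The Mx part of the rule matched 0 rows, and Mx1 was not analysed here.

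The 13 libraries were made from total RNA and fell into 6 groups. Oct4-GFP-positive colonies (1 library) and Oct4-GFP-positive clusters (1 library) had been picked from C57xICR fibroblast cultures treated with the mix labelled VC6TF+Z. Oct4-GFP-negative cells (GFP-negative, 2 libraries) had been picked from C57xICR cultures labelled VC6TF. Lines 6 and 11 of chemically induced pluripotent cells (CiPSC, 2 libraries) carried the strain label C57xICR and the treatment label VC6TFMB+Z. Embryonic stem cells (ESC, 4 libraries) were of the R1 line, strain 129, with no treatment, so they differed from every other group in strain as well as in cell type. Mouse embryonic fibroblasts (MEF, 3 libraries) were untreated C57xICR cells. ESC and CiPSC grew on mitomycin C-treated MEF feeder cells, which carry fibroblast RNA. The labels do not say that libraries of 1 group came from separate cultures or animals, and p-values therefore measure the spread between these libraries, which may be technical. In bulk RNA, fewer cells of a type and less RNA per cell cannot be told apart.

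Values were RPKM, reads per kilobase of gene and per M reads. In 10 libraries the length was that of the whole gene span, introns included, and the estimated depth was 8.86 to 17.64 M reads. The other 3 libraries, both CiPSC lines and ESC replicate 4, used exonic length at unknown depth and are compared only with one another. The number of genes at 1 RPKM or more was 4691 to 6614 in the 10 gene-span libraries. Pou5f1, which encodes Oct4, was at 124 RPKM in the colonies, 0.260 in the clusters, 0.191 and 0.429 in GFP-negative cells, 86.1, 95.6 and 152 in ESC, and listed at 0, 0 and 0.154 in MEF. The library labelled GFP-positive clusters was thus at the GFP-negative level of this gene. Of 9 pluripotency markers, 6 were at 1 RPKM or more in the colonies, 0 in the clusters and 9 in each ESC library. MEF replicate 3 stood apart in markers of macrophages and blood: the 9 measured markers summed to 257 RPKM there, against 21.3 and 32.4 in MEF replicates 1 and 2, with Lyz2 at 97.2, Cd68 at 71.7 and C1qa at 39.5.

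Interferons bind receptors that activate the Janus kinases Jak1, Jak2 and Tyk2. The kinases phosphorylate Stat proteins, which bind the interferon-stimulated response element (ISRE), together with Irf9, or the gamma-activated site (GAS) in the promoters of interferon-stimulated genes. Among the targets are the antiviral effectors Isg15, Ifit and Oas, the Gbp GTPases and the machinery that shows peptides to T cells. That machinery has a class I heavy chain (H2-K, H2-D and the non-classical H2-Q, H2-T and H2-M genes) paired with the B2m light chain, loaded with peptides cut by the immunoproteasome subunits Psmb8 and Psmb9 and pumped into the endoplasmic reticulum by Tap1 and Tap2. Pluripotent stem cells are known for little class I at the cell surface and a weak interferon response.

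The promoters of 6 members are printed as examples that carry the letters to which these factors bind. They do not stand for all genes described below. H2-K1, H2-D1 and Irf7, which are described often, had neither an ISRE core nor a GAS in the windows searched below. Each sequence is the 150 bases before the annotated start, from RefSeq on GRCm38.p6, with matches to the ISRE core (GAAA-NN-GAAA) or the GAS (TTC-NNN-GAA) in capitals, where N is any base. Both strands were searched, and overlapping matches are joined. Isg15 (chr4:156200819-156200968, minus strand) holds 3 overlapping ISRE cores that begin 78, 72 and 66 bases before the start. Ifit1 (chr19:34640739-34640888, plus strand) holds 2 on the opposite strand, 104 and 85 bases before the start. Oas1a (chr5:120907526-120907675, minus strand) holds 2 overlapping ISRE cores, at 20 and 14 bases, and 1 GAS at 98 bases. B2m (chr2:122147537-122147686, plus strand) and H2-T23 (chr17:36032702-36032851, minus strand) hold 1 ISRE core each, at 139 and 124 bases. Psmb8 (chr17:34198045-34198194, plus strand) holds 1 GAS at 97 bases.
Isg15: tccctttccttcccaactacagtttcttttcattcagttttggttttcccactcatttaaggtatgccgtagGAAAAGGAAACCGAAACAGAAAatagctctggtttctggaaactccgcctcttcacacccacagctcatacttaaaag
Ifit1: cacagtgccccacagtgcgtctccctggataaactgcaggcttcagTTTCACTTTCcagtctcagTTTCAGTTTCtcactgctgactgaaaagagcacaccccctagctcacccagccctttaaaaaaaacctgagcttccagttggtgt
Oas1a: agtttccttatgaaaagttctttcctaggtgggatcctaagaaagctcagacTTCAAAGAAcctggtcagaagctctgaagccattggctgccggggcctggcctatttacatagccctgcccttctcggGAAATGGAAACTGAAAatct
B2m: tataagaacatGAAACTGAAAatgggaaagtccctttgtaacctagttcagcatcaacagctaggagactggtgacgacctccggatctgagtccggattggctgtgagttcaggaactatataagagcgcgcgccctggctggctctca
H2-T23: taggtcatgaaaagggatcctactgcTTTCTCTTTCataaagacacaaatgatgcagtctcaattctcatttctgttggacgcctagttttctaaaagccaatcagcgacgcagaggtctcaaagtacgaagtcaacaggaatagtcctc
Psmb8: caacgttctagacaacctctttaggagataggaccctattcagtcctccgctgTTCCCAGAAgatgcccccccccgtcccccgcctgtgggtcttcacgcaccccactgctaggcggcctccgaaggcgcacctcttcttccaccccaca

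RefSeq windows of 300 bases, 250 before to 50 after the start, matched 57 of the 73 members. An ISRE core was found in 18 of these 57 (31.6%), against 3.99% of all 27025 genes with a window and 3.44% of all 32851 windows. A GAS was found in 12 of the 57 (21.1%), against 9.55% of all genes and 8.3% of all windows. The members with an ISRE core were B2m, H2-T22, H2-T23, Isg15, Ifit1, Ifih1, Ifitm2, Ifitm3, Oas1a, Oas1c, Oas1g, Oas3, Gbp2, Gbp3, Gbp7, Irf2, Stat2 and Stat4. A match is a run of letters and says nothing about whether a factor bound there.

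**Figure D1:**
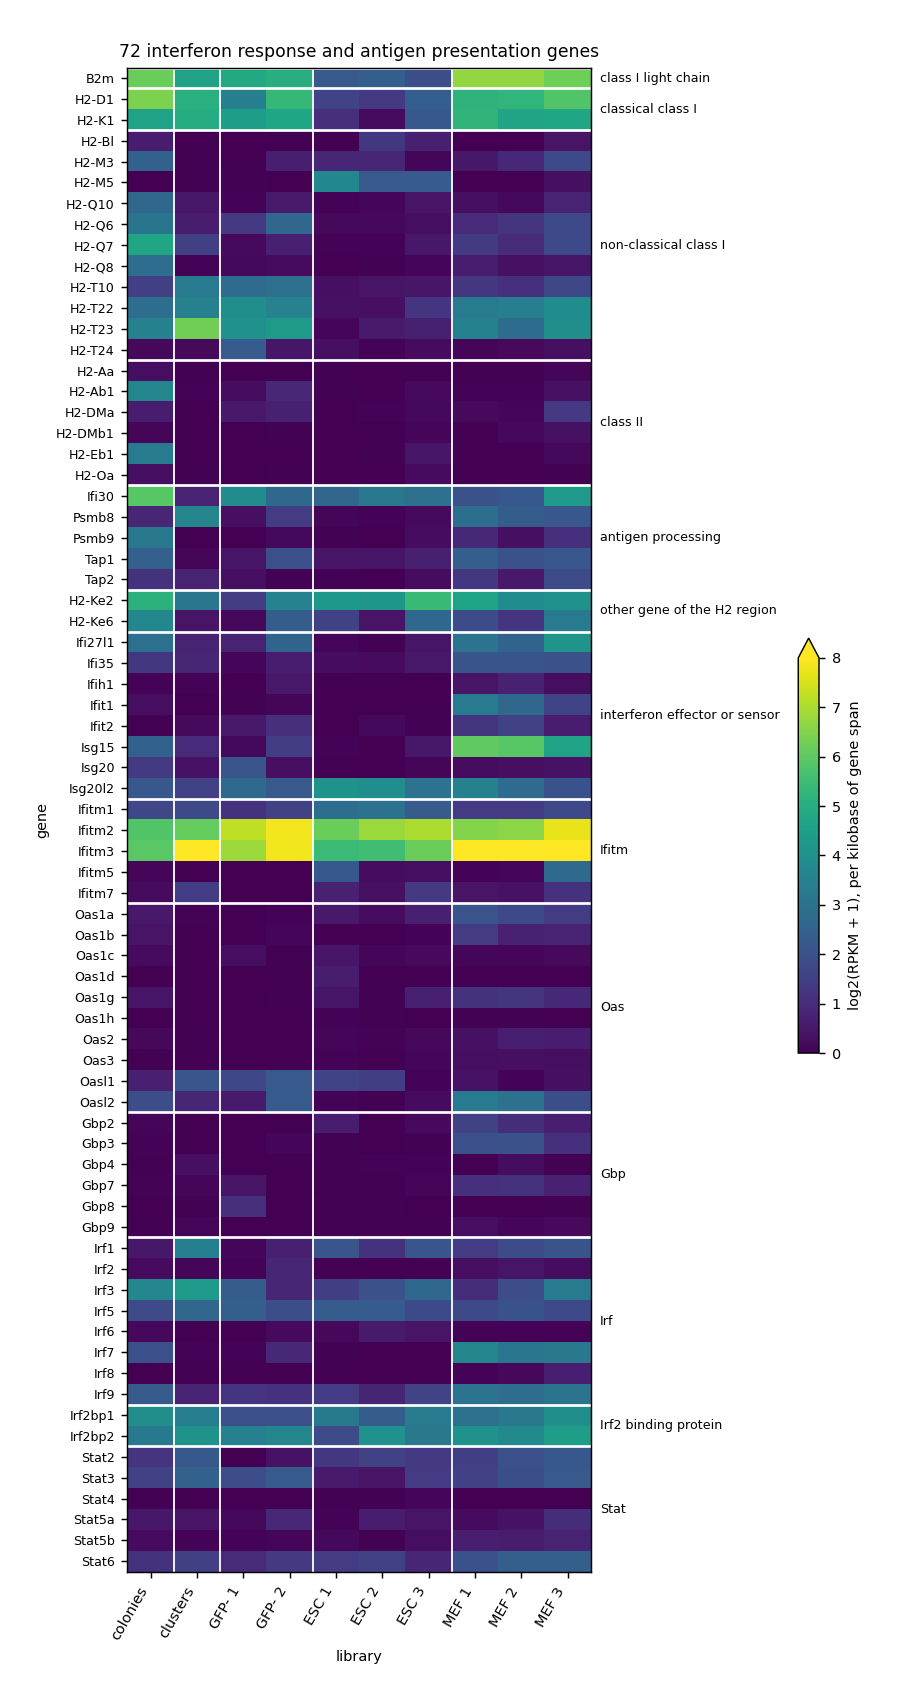
Level of 72 of the 73 genes (rows, grouped by role) in the 10 gene-span libraries (columns), as log2(RPKM + 1) by color from 0 to 8 and above. B2m, the classical class I genes and H2-T22 and H2-T23 are dark in the 3 ESC libraries, and the class II genes H2-Ab1 and H2-Eb1 are bright in the colonies.

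The level of the members as a set differed by library. Members at 1 RPKM or more numbered 37 in the colonies, 23 in the clusters, 23 and 27 in GFP-negative cells, 21, 18 and 21 in ESC, and 40, 39 and 42 in MEF. Of the 73 members, 32 had their highest gene-span value in a MEF library, 14 in the colonies, 10 in the clusters, 10 in an ESC library and 7 in a GFP-negative library. For testing, a gene had to reach 1 RPKM in at least 2 of the 10 libraries, which 47 members and 8607 genes in all did. Of the 47, 14 passed this filter only because of MEF libraries, and counts of lower members are to be read with that in mind. Of the 26 members that did not pass, 16 were under 1 RPKM in all 10 libraries and 10 reached it in 1 library, which was the colonies for H2-Ab1, H2-Eb1, H2-Q8 and H2-Q10, GFP-negative replicate 1 for H2-T24 and Gbp8, MEF replicate 3 for H2-DMa and Stat5a, MEF replicate 1 for Oas1b and ESC replicate 2 for H2-Bl.

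ESC were compared with MEF, the end state that reprogramming aims at against its starting cells. Class I presentation and the interferon effectors were lower in ESC: B2m, H2-K1, H2-D1, H2-T22 and H2-T23 fell, and so did Isg15, Ifit1, Irf7, Irf9, Psmb8 and both Tap genes. Only H2-M5 and Ifitm1 rose among the members tested, and H2-M5 entered the test through its ESC levels alone. A change was called when limma gave a Benjamini-Hochberg adjusted p below 0.05 over 8607 genes and the log2 change was at least 1 in either direction. By this rule 22 of the 47 tested members fell and 2 rose. Over all genes tested, 8.92% fell and 8.52% rose. The median log2 change was -1.04 over the members and 0.156 over all genes. Of the 22 that fell, 14 passed the filter without MEF libraries and 15 were under 1 RPKM in all 3 ESC libraries. The other 8, among them Ifit1, Ifit2, Ifi35, Irf7, Oas1a, Gbp3 and Tap2, entered the test only through their MEF levels, so a lower value in ESC was built into their selection. ESC and MEF ranges did not overlap in 30 members with ESC below, where 19.2% of all genes did so, and in 2 with ESC above, where 25.3% did so. Fibroblast markers summed to 11.3, 17.3 and 25.4 RPKM in ESC, against 772, 688 and 2662 in MEF. The share of fibroblast RNA thus moved with these genes, and its part in the result was not tested. The MEF libraries were not alike. Replicate 3 was higher than replicate 1 by a log2 difference of 1 or more in 8 of 47 members and lower in 5, where 18.3% and 5.1% of all genes were. Isg15, Ifit1, Oasl2, Gbp3 and Ifitm3 were lowest of the 3 MEF libraries in replicate 3, and without it 21 members fell and 2 rose in ESC.

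The light chain B2m stood at 3.66, 4.38 and 2.77 RPKM in ESC, against 104, 102 and 75.0 in MEF, or 261, 285 and 149 estimated reads against 6620, 9753 and 3888. Its log2 change was -4.36 ± 0.35 (SE; adjusted p = 0.000141). The classical heavy chain H2-K1 stood at 1.13, 0.172 and 3.58 RPKM in ESC, against 36.5, 24.3 and 25.2 in MEF, and fell by 3.70 ± 0.51 on the log2 scale (adjusted p = 0.00177). H2-D1, the other classical heavy chain, stood at 2.08, 1.54 and 4.28 RPKM in ESC, against 35.5, 37.8 and 56.1 in MEF, and fell by 3.64 ± 0.54 (adjusted p = 0.00265). In all 3 genes every ESC library lay below every MEF library.

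Among 7 tested non-classical class I genes, 3 fell and 1 rose. H2-T23, which encodes the Qa-1 heavy chain seen by natural killer cells, stood at 0.0828, 0.485 and 0.622 RPKM in ESC, against 10.3, 6.08 and 14.4 in MEF (log2 change -2.96 ± 0.39, adjusted p = 0.00141). H2-T22 stood at 0.294, 0.266 and 1.31 RPKM in ESC, against 8.82, 9.72 and 13.9 in MEF (log2 change -2.90 ± 0.37, adjusted p = 0.00121). H2-T10 and H2-T22 are near-identical, as are H2-Q6, H2-Q7 and H2-Q8, and reads may have been split between them. H2-Q7 fell by 1.16 on the log2 scale, a call lost in 4 of 17 alternatives, while H2-Q6 (-1.10) and H2-T10 (-0.97) did not pass the test. H2-M5 went the other way. It stood at 12.2, 3.71 and 3.92 RPKM in ESC and at 0, 0 and 0.266 in MEF, a log2 change of 2.64 ± 0.39 (adjusted p = 0.00239), with no overlap between the groups. Among the gene-span libraries it reached 1 RPKM only in ESC, so a higher value in ESC was built into its selection.

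Of the 5 antigen processing genes, Psmb8, Tap1 and Tap2 fell. The immunoproteasome subunit Psmb8 stood at 0.0692, 0.0507 and 0.153 RPKM in ESC, against 6.44, 4.16 and 3.48 in MEF (log2 change -2.35 ± 0.34, adjusted p = 0.00235). The peptide pump subunit Tap1 stood at 0.342, 0.359 and 0.629 RPKM in ESC, against 4.36, 2.94 and 3.55 in MEF (log2 change -1.67 ± 0.39, adjusted p = 0.0181). Tap2 changed by -1.12 ± 0.31 (adjusted p = 0.0372). The call of Tap1 was lost in 4 of 17 alternatives and that of Tap2 in 7 of 16, while Psmb8 kept its call in all 18. Psmb9 (-0.66 ± 0.23, adjusted p = 0.0747) and Ifi30, a lysosomal thiol reductase of class II processing (0.10 ± 0.63), did not pass. In the RefSeq order Psmb9, Tap1, Psmb8 and Tap2 are neighbors, between H2-DMb1 and H2-Ob.

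Of 7 tested interferon effector and sensor genes, 5 fell. Isg15, a ubiquitin-like modifier and a classic interferon target, was at 0.0539, 0 and 0.429 RPKM in ESC, against 65.3, 59.3 and 23.6 in MEF. That is 1, 0 and 6 estimated reads against 1074, 1458 and 316, and the log2 change of -5.33 ± 0.49 (adjusted p = 0.000257) was the largest among the members. Ifit1, which binds viral RNA, was at 0.00823, 0.0181 and 0.001 RPKM in ESC, against 9.07, 5.47 and 2.15 in MEF (log2 change -2.55 ± 0.38, adjusted p = 0.00259). Near 0 such a change depends on the pseudocount of 1 and bounds no fold. Ifi27l1 (-3.04), Ifi35 (-1.70) and Ifit2 (-1.04) fell as well, the last with its call lost in 6 of 17 alternatives. Isg20l2, a nucleolar exonuclease, was at 16.1, 14.1 and 7.20 RPKM in ESC and 10.5, 5.98 and 3.05 in MEF and did not pass the test.

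The factors that carry the signal did not all move alike. Irf7, the master factor of the type I interferon response, was at 0.0398, 0 and 0.001 RPKM in ESC, against 11.8, 7.82 and 8.15 in MEF, a log2 change of -3.32 ± 0.30 (adjusted p = 0.00024), and it entered the test only through its MEF levels. Irf9, the DNA-binding partner of Stat proteins, was at 1.70, 0.767 and 2.12 RPKM in ESC, against 7.31, 6.23 and 7.42 in MEF (-1.70 ± 0.30, adjusted p = 0.00592). Irf1, Irf3, Irf5 and Stat2 did not pass, with log2 changes of 0.03, -0.03, 0.30 and -0.46. Stat6, which signals for interleukin-4, passed narrowly at -1.02 (adjusted p = 0.0407) and lost the call in 10 of 17 alternatives, and Stat3, the mediator of leukemia inhibitory factor in ESC, did not at -1.10 (adjusted p = 0.0575).

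In the remaining families, 2 of 4 tested Oas genes, 1 of 3 Gbp genes and 1 of 5 Ifitm genes fell. The Oas genes make or resemble enzymes for the 2-5A messenger that activates RNase L. Oas1a was at 0.467, 0.205 and 0.637 RPKM in ESC, against 3.34, 2.42 and 1.65 in MEF (log2 change -1.25, adjusted p = 0.00838), and Oasl2 changed by -2.62 (adjusted p = 0.00733). Gbp3, a guanylate-binding GTPase, changed by -1.64 (adjusted p = 0.00325). Ifitm3, which blocks viral entry, stood at 42.7, 45.7 and 72.3 RPKM in ESC, against 611, 583 and 282 in MEF (-3.13 ± 0.48, adjusted p = 0.00286). Ifitm1 stood at 6.35, 7.07 and 3.95 RPKM in ESC, against 1.68, 1.62 and 2.39 in MEF, and rose by 1.21 ± 0.31 (adjusted p = 0.0271), a call lost in 4 of 18 alternatives. Ifitm2 overlapped between the groups, at 73.3, 111 and 129 RPKM in ESC against 90.2, 96.4 and 213 in MEF. The Oas1, Gbp and Ifitm families hold near-identical copies, so the split of reads within each is uncertain.

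**Figure D2:**
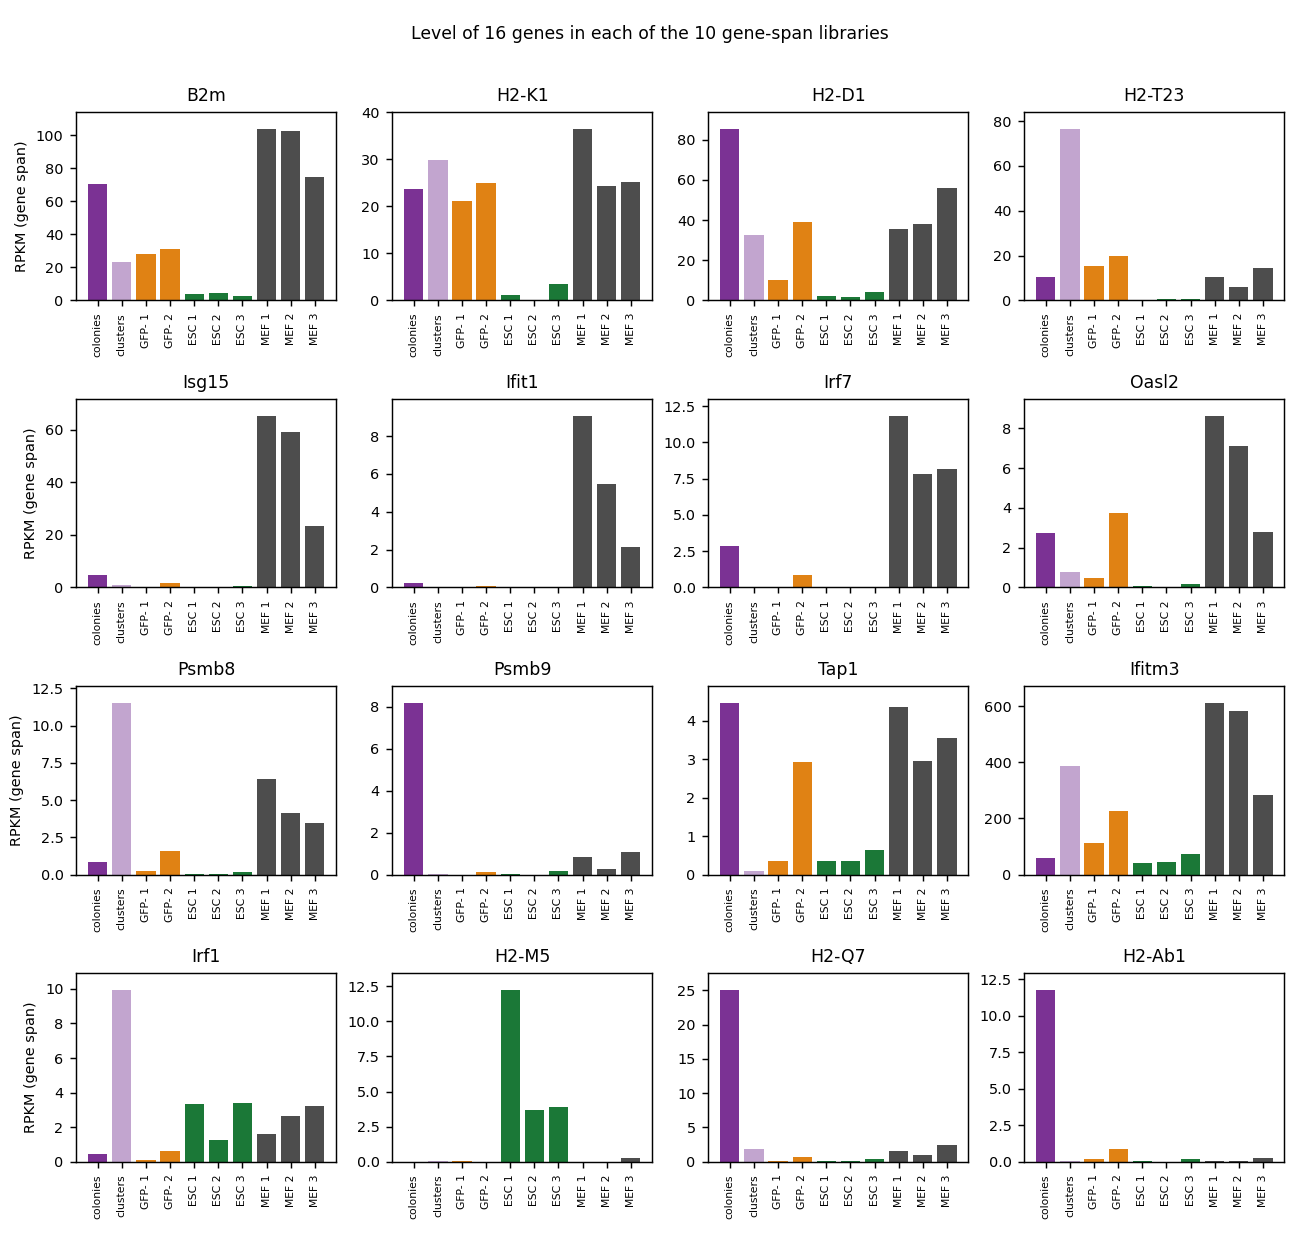
RPKM (y axis, per kilobase of gene span, each panel with its own scale from 0) of 16 genes in each of the 10 gene-span libraries (bars, 1 per library, colored by group). B2m, H2-K1 and H2-D1 are lowest in the 3 ESC bars, Isg15, Ifit1 and Irf7 are highest in the 3 MEF bars, and H2-Q7, Psmb9 and H2-Ab1 are highest in the colonies.

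GFP-negative cells were compared with MEF to set treated cells that had not turned on Oct4-GFP beside the untreated starting cells. The interferon target Isg15 and the factors Irf9 and Stat2 fell. Ifit1, Irf7, Oas1a, Oas1g, Gbp3 and Ifi35 fell as well, but these 6 entered the test only through their MEF levels. B2m and Psmb8 fell too, but the heavy chains H2-K1, H2-D1, H2-T22 and H2-T23 did not pass the test, and H2-T10 rose. In all, 11 of 47 members fell and 1 rose, where 3.09% of all genes fell and 3.1% rose. Scaling to a common upper quartile gave 9 lower and 2 higher, and quantile normalization gave 8 lower and 2 higher. The median log2 change was -0.928 over the members and -0.2 over all genes. The median over all genes was -0.129 under upper-quartile scaling and 0.0106 under quantile normalization. The ranges of the 2 groups did not overlap in 26 members with GFP-negative cells below, where 27% of all genes did so, and in 3 with them above, where 14.4% did so. Of the 11 that fell, 5 passed the filter without MEF libraries. Oas1g lost its call in 5 of 14 alternatives, Irf9 in 3 of 17 and Stat2 in 3 of 16. Without GFP-negative replicate 1 the number that fell was 3, and without MEF replicate 1 or 2 it was 7.

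Isg15 was at 0.130 and 1.74 RPKM in GFP-negative cells, against 65.3, 59.3 and 23.6 in MEF, a log2 change of -4.71 ± 0.54 (adjusted p = 0.00285). Irf7 was at 0.0478 and 0.872 RPKM in GFP-negative cells, against 11.8, 7.82 and 8.15 in MEF (-2.85 ± 0.34, adjusted p = 0.00312). Both kept their call in every alternative run. Ifit1 was at 0.0296 and 0.0847 RPKM in GFP-negative cells, against 9.07, 5.47 and 2.15 in MEF (-2.48 ± 0.42, adjusted p = 0.0126). Irf9 was at 1.34 and 1.23 RPKM, against 7.31, 6.23 and 7.42 in MEF (-1.80 ± 0.34, adjusted p = 0.0187). Stat2 was at 0.0203 and 0.322 RPKM, against 1.79, 2.85 and 3.51 in MEF (-1.65 ± 0.32, adjusted p = 0.0204).

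B2m was at 27.8 and 31.2 RPKM in GFP-negative cells, against 104, 102 and 75.0 in MEF (log2 change -1.62 ± 0.39, adjusted p = 0.0458). This call was close to the threshold and was lost in 6 of 17 alternatives, and that of Psmb8 (-1.62, adjusted p = 0.0422) was lost in 11 of 17. H2-K1 was at 21.1 and 24.9 RPKM in GFP-negative cells and 36.5, 24.3 and 25.2 in MEF (-0.29 ± 0.57, adjusted p = 0.8). H2-D1 was at 9.97 and 38.9 RPKM in GFP-negative cells and 35.5, 37.8 and 56.1 in MEF (-1.05 ± 0.61, adjusted p = 0.338), so the GFP-negative libraries disagreed and their range overlapped that of MEF. H2-T10 was at 5.99 and 6.67 RPKM in GFP-negative cells, against 1.43, 1.16 and 2.34 in MEF (1.49 ± 0.30, adjusted p = 0.0257). This call was lost in 5 of 17 alternatives, among them the removal of either GFP-negative library.

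The pair of GFP-negative libraries differed from each other, in the members about as often as in all genes. Replicate 2 was higher than replicate 1 by a log2 difference of 1 or more in 10 of 47 members (21.3%) and lower in 3 (6.4%), and over all genes these shares were 17.4% and 10.5%. Tap1 was at 0.355 and 2.91 RPKM, Oasl2 at 0.484 and 3.77, and Ifi27l1 at 0.689 and 5.01 in replicates 1 and 2. None of these 3 passed the test against MEF. The macrophage and blood markers summed to 69.7 and 53.9 RPKM in GFP-negative cells, of which Cd14 alone gave 69.3 and 52.3. Cd68 was at 0.233 and 1.45 RPKM, while Lyz2, C1qa and Fcer1g were at 0.02 RPKM or less. Without MEF replicate 3, the library with macrophage markers, 11 members fell and 1 rose, as many as with it.

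GFP-negative cells were then compared directly with ESC, which tests whether the distance of these groups from their shared MEF libraries differed. Class I genes were higher in GFP-negative cells: B2m, H2-K1, H2-D1, H2-Q6, H2-T10, H2-T22 and H2-T23 rose, as did Stat3. H2-M5, Ifitm1, Irf1, Stat2 and H2-Ke2, a prefoldin subunit that only lies in the H2 region, fell. In all 8 of 47 members rose and 5 fell, where 9.14% of all genes rose and 15.2% fell. Of the lower members, H2-Ke2 lost its call in 8 of 17 alternatives, Irf1 in 7 of 16, Stat2 in 5 of 16 and Ifitm1 in 4 of 17, while H2-M5 kept its call in all 16. But H2-M5 entered the test only through its ESC levels, so a lower value in GFP-negative cells was built into its selection. Without GFP-negative replicate 1 or ESC replicate 1, 1 member fell, and without ESC replicate 2 or 3, 2 fell. Among the higher calls Stat3 was lost in 5 of 16 alternatives, and H2-Q6 and H2-D1 without GFP-negative replicate 2. GFP-negative cells lay wholly above ESC in 18 members, where 19.7% of all genes did so, and wholly below in 10, where 35.3% did so. A pseudocount of 0.1 gave 13 that rose, and 0.01 gave 14. The split of calls was 9 and 5 under upper-quartile scaling and 11 and 2 under quantile normalization. The median of all genes was -0.319, and -0.21 and -0.0487 under these scalings.

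By role, the light chain, both classical heavy chains and 4 of 7 non-classical class I genes rose. B2m was at 27.8 and 31.2 RPKM in GFP-negative cells, against 3.66, 4.38 and 2.77 in ESC (log2 change 2.74 ± 0.39, adjusted p = 0.00199). H2-K1 changed by 3.41 ± 0.57 (adjusted p = 0.00372), H2-D1 by 2.60 ± 0.61 (adjusted p = 0.0147), H2-T22 by 3.12 ± 0.41 (adjusted p = 0.0014) and H2-T23 by 3.74 ± 0.43 (adjusted p = 0.000787). Of the 7 effector and sensor genes, 0 passed with limma and 3 had an unadjusted p under 0.05 (Ifi27l1, Ifit2 and Isg20, all higher). Their differences were positive in 6 of 7, with a median of 0.617, against a median of 1.77 for the non-classical class I genes. In each of these roles 4 of 7 genes lay wholly above ESC, where 19.7% of all genes did so. Among these effector genes Ifit1 had only 3 and 8 estimated reads in GFP-negative cells, against 1, 2 and 0 in ESC. A difference between the roles was not tested. Of the 5 antigen processing genes, 0 passed and 0 had an unadjusted p under 0.05. The log2 difference was 0.62 ± 0.54 for Isg15, 0.07 ± 0.42 for Ifit1 and 0.47 ± 0.34 for Irf7. These 3 genes were at most 0.429 RPKM in ESC. Isg15 was at 0.130 and 1.74 RPKM in GFP-negative replicates 1 and 2, and Irf7 at 0.0478 and 0.872. Near 0 such differences depend on the pseudocount of 1. No other tool was run on these values.

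**Figure D3:**
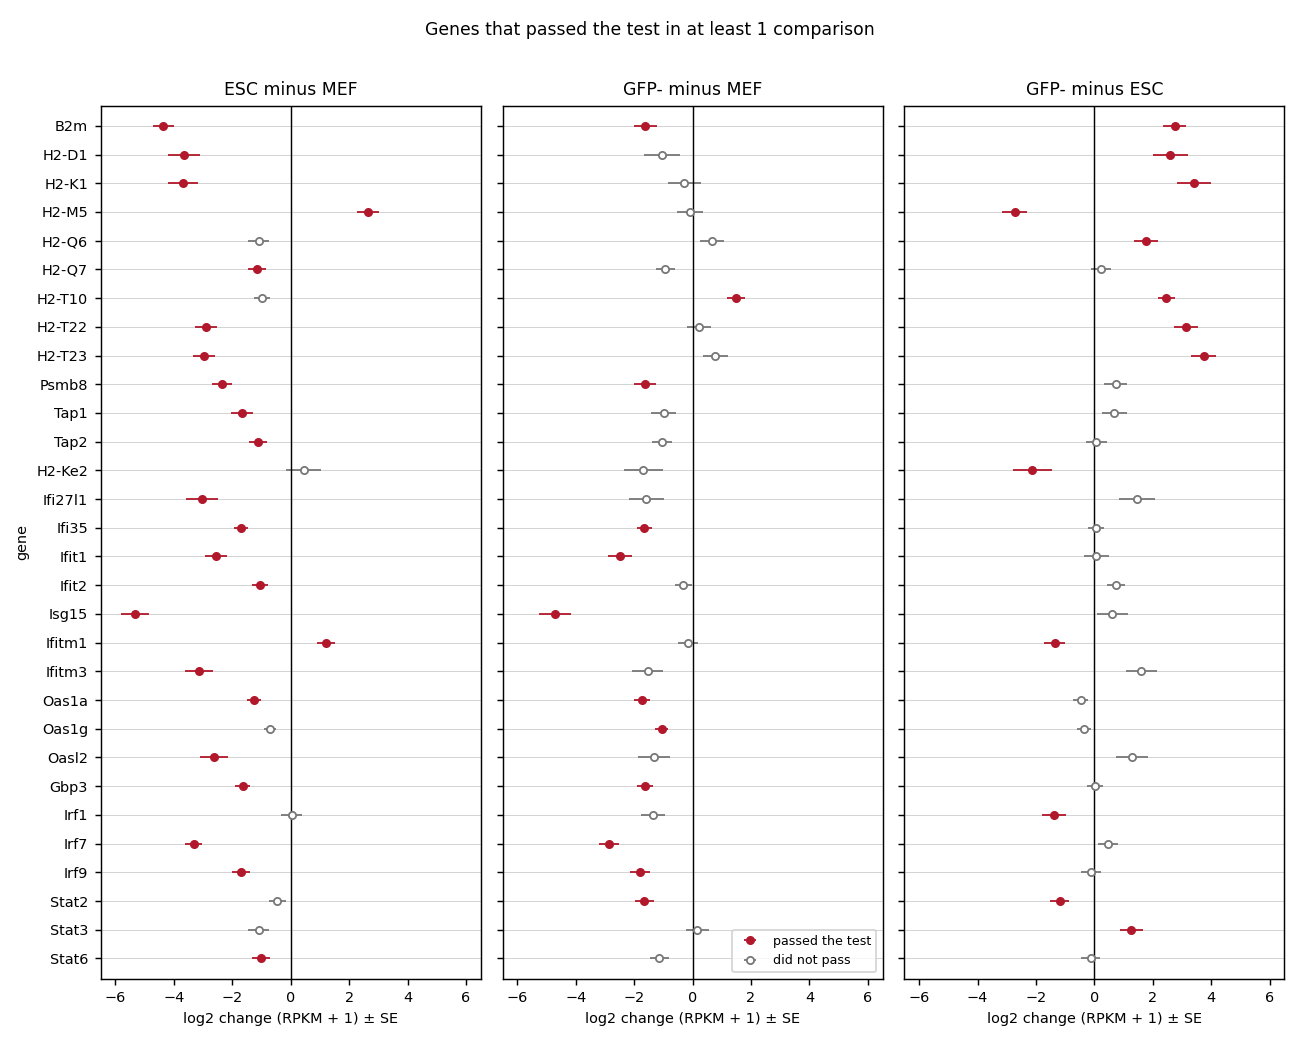
Log2 change of RPKM + 1 (points) with its standard error (bars) for 30 genes that passed the test in at least 1 of 3 comparisons, with filled red points where the test was passed and open gray points where it was not. Apart from H2-M5, the class I genes lie left of 0 for ESC minus MEF and right of 0 for GFP-negative minus ESC, and Isg15, Ifit1 and Irf7 lie left of 0 in both comparisons with MEF.

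The clusters had 1 library, so their differences from GFP-negative cells have no replicate check and no test. The clusters came from cultures labelled VC6TF+Z and the GFP-negative cells from cultures labelled VC6TF. Treatment and GFP label thus cannot be told apart in this comparison. Past a log2 difference of 1, 9 of 47 members were higher and 4 lower in the clusters, where 13.5% of all genes were higher and 16.1% lower. The balance depended on the pseudocount, with 11 higher and 12 lower at 0.1 and 13 and 13 at 0.01, and without GFP-negative replicate 1 it was 7 and 7. The median was 0.0338 over the members and -0.106 over all genes. Irf1, a factor induced by interferon gamma, was at 9.92 RPKM in the clusters, against 0.0864 and 0.637 in GFP-negative cells. Psmb8 was at 11.5 RPKM in the clusters, against 0.249 and 1.60 in GFP-negative cells, while its partner Psmb9 was at 0.0194, against 0 and 0.134. Irf3, which acts downstream of viral RNA and DNA sensors, was at 18.5 RPKM, against 4.19 and 0.800. H2-T23 was at 76.6 RPKM, against 15.4 and 19.7, and Stat2 at 3.59, against 0.0203 and 0.322. In Irf1, Psmb8, Irf3, H2-T23 and Stat2 the clusters were the highest of the 10 libraries. Ifi30 was lower, at 0.692 RPKM in the clusters, against 13.4 and 5.55 in GFP-negative cells, and so was Tap1, at 0.0927 against 0.355 and 2.91. Isg15 was at 0.965 RPKM in the clusters and 0.130 and 1.74 in GFP-negative cells, and Ifit1 was at 0.0123, against 0.0296 and 0.0847. Of 6 endothelial markers measured, Kdr was at 24.6 RPKM in the clusters, against 0.469 and 0.250 in GFP-negative cells, and Cd34 at 6.25, against 4.34 and 2.85. The other markers, Pecam1, Cdh5, Tek and Esam, were at 0.00116, 0.00784, 0.00331 and 0.241 RPKM in the clusters. Any part of endothelial cells in these differences was not tested.

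The colonies also had 1 library. Against the clusters, 15 of 47 members were higher and 7 lower past a log2 difference of 1, near the 33.1% and 14.9% of all genes. This count depended on scaling, with 13 higher and 13 lower under upper-quartile scaling and 10 higher and 13 lower under quantile normalization, and a pseudocount of 0.01 gave 23 higher and 12 lower. The median of all genes was 0.429, and 0.211 and 0.0122 under these scalings. The colonies and the clusters also differed in the value listed for unmeasured genes, 0.001 in the colonies and 0 in the clusters. No label says what sets these libraries apart, and it cannot be told apart from the difference in cells. Irf1 was at 0.429 RPKM in the colonies, against 9.92 in the clusters, Psmb8 at 0.825, against 11.5, and H2-T23 at 10.4, against 76.6. Psmb9 was at 8.19 RPKM in the colonies, against 0.0194 in the clusters, Ifi30 at 59.0, against 0.692, and H2-Q7 at 25.0, against 1.86. The 2 immunoproteasome subunits thus differed in opposite directions between these libraries.

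Against the 3 gene-span ESC libraries, 20 of 47 members were higher in the colonies and 4 lower, where 17.9% of all genes were higher and 11.4% lower. The median difference was 0.743 over the members and 0.0182 over all genes. Against ESC replicate 3 alone, which shares the colonies' value for unmeasured genes, 19 were higher and 4 lower, where 10.6% and 11.7% of all genes were. H2-D1 was at 85.4 RPKM in the colonies, against 2.08, 1.54 and 4.28 in ESC, B2m at 70.5, against 3.66, 4.38 and 2.77, and H2-K1 at 23.6, against 1.13, 0.172 and 3.58. H2-Q7, a gene of the Qa-2 antigen, was at 25.0 RPKM in the colonies, against 0.05, 0.0549 and 0.442 in ESC. Both classical heavy chains, 6 of 7 non-classical class I genes and 4 of 5 antigen processing genes were past a log2 difference of 1, and the exceptions were H2-M5, which was lower, and Psmb8, at 0.825 RPKM in the colonies against 0.0692, 0.0507 and 0.153. Isg15 was at 4.57 RPKM and Irf7 at 2.87 in the colonies, against at most 0.429 and 0.0398 in ESC. H2-M5 was at 0.001 RPKM in the colonies, the value for an unmeasured gene, against 12.2, 3.71 and 3.92 in ESC, the only gene-span libraries where it reached 1 RPKM. Isg20l2, Irf1 and Ifitm1 were also lower, with log2 differences of -1.50, -1.29 and -1.03. Against ESC replicate 3 alone the lower members were H2-M5, Irf1, Ifitm2 and Ifitm7. Isg20l2 and Ifitm1 were at -0.86 and -0.60 in that comparison.

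Class II molecules are the ones that professional antigen-presenting cells use for exogenous peptides. Of 6 class II members, 2 were at 1 RPKM or more in the colonies, and the others stayed under 0.6 RPKM there. H2-Ab1 was at 11.7 RPKM and H2-Eb1 at 8.82 in the colonies, or 1379 and 954 estimated reads. In the other 9 gene-span libraries the 2 genes reached at most 0.863 and 0.369 RPKM. The partner chain H2-Aa was at 0.221 RPKM in the colonies, and Cd74, the invariant chain that class II molecules need for assembly, was at 0.0226. The non-classical genes H2-Q8 (6.31 RPKM) and H2-Q10 (5.18 RPKM) had their highest value there too, against at most 0.528 and 0.743 elsewhere. The macrophage and blood markers summed to 24.4 RPKM in the colonies, 5 of 9 being at 1 RPKM or more (Cd68 at 15.8 and Lyz2 at 2.69), against 3.87, 4.59 and 11.5 in ESC. Of the endothelial markers, Esam was at 13.4 RPKM and Cdh5 at 5.42, while Kdr, Pecam1, Tek and Cd34 were at 0.072, 0.119, 0.519 and 0.244. Fibroblast markers summed to 45.9 RPKM in the colonies, between the ESC sums of 11.3 to 25.4 and the GFP-negative sums of 239 and 279. The part of such cells in the class I and class II values was not tested.

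CiPSC lines 6 and 11 were compared with ESC replicate 4, on the exonic length scale and without a test, to set the finished lines beside ESC. Of the 73 members, 22 were at 1 RPKM or more in at least 2 of these 3 libraries, and 20 of the 22 were within a log2 difference of 1 in both lines. In both lines 1 member was past it upward and 1 downward, where 0.935% and 0.568% of 8986 genes were. Ifitm3 was at 52.9 and 49.6 RPKM in CiPSC, against 20.9 in ESC replicate 4. Ifitm1 was at 7.46 and 7.20 RPKM in CiPSC, against 18.0 in ESC replicate 4. These family members thus lay on opposite sides of ESC replicate 4, and Ifitm2 was at 80.7 and 78.4 RPKM in CiPSC, against 92.0. In a limma fit over all 13 libraries with a term for the length scale, 0 of 49 members passed, with an adjusted p of 0.557 for Ifitm1, 1 had an unadjusted p under 0.05, and 17 of 10647 genes passed.

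B2m and both classical heavy chains were between 0.721 and 4.17 RPKM in the 3 exon-scale libraries. B2m was at 4.17 and 4.11 RPKM in CiPSC and 4.0 in ESC replicate 4, H2-K1 at 1.42 and 1.35 against 2.25, and H2-D1 at 0.721 and 0.849 against 2.60. H2-D1 was thus under 1 RPKM in both lines, which kept it out of the 22 members that passed the filter. Its log2 differences from ESC replicate 4 were -1.06 in line 6 and -0.96 in line 11. H2-T23 was at 2.00 and 3.07 RPKM in CiPSC, against 2.52 in ESC replicate 4. H2-M5, the class I gene that rose in ESC against MEF, was at 4.92 and 4.80 RPKM in CiPSC, above B2m per kilobase of exon, and at 3.40 in ESC replicate 4. The class II genes H2-Ab1 and H2-Eb1 were at most 0.303 and 0.862 RPKM in CiPSC, and Psmb9 at most 0.340. Isg15 (0.0647 and 0.0914 RPKM), Ifit1 (0.00371 and 0.0131) and Irf7 (0.0160 and 0.0252) were near 0 in both lines, against 0.0632, 0.00777 and 0.0187 in ESC replicate 4. Between the lines, no member of the 22 differed by a log2 difference of 1, and the largest was 0.44.

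**Figure D4:**
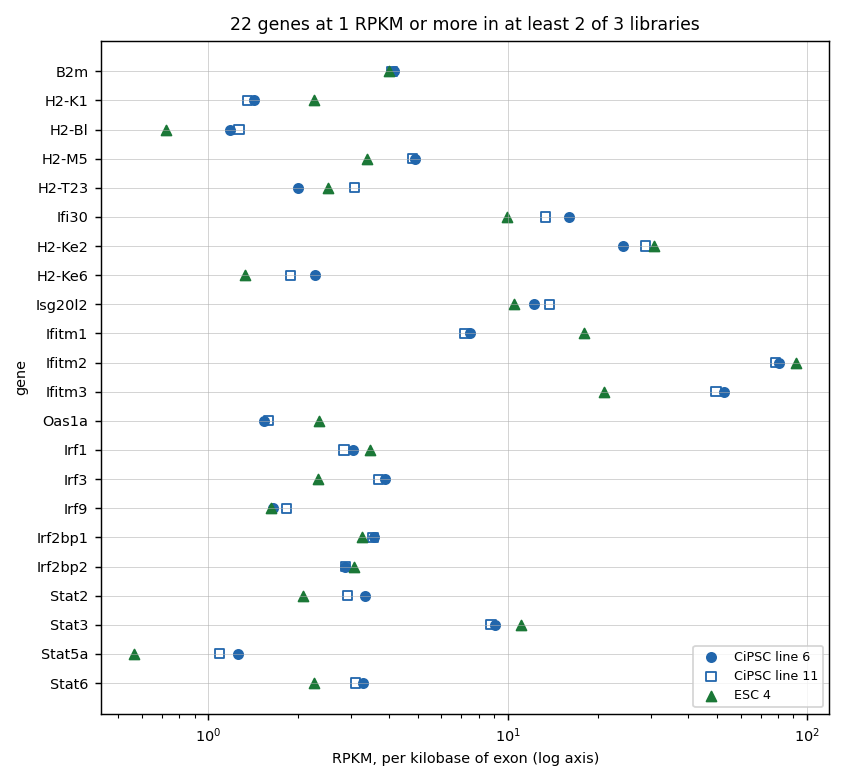
RPKM per kilobase of exon (x axis, log scale) of the 22 genes that reached 1 RPKM in 2 of the 3 libraries, with circles and squares for CiPSC lines 6 and 11 and triangles for ESC replicate 4. The CiPSC symbols lie close to each other, with Ifitm3 to the right and Ifitm1 to the left of the ESC triangle.

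Other genes of the same pathway, listed apart from the symbol rule, were read in the same fit. Of 60 measured, 44 passed the filter. In ESC against MEF 13 fell (29.5%) and 1 rose (2.27%), where 8.92% and 8.52% of all genes did so. In GFP-negative cells against ESC 4 rose (9.09%) and 6 fell (13.6%), near the 9.14% and 15.2% of all genes. In GFP-negative cells against MEF 9 fell (20.5%) and 0 rose with limma, where 3.09% and 3.1% of all genes did so, and 0 of the 10 genes with a positive change had an unadjusted p under 0.05. These comparisons share libraries. Of the genes that fell against MEF, Rtp4, Igtp, Dhx58, Xaf1, Trim21 and Samd9l entered the test only through their MEF levels. A lower value was thus built into their selection. Lgals3bp, a secreted glycoprotein, was at 8.15 and 4.67 RPKM in GFP-negative cells and 0.467, 0.813 and 0.363 in ESC, against 38.5, 30.8 and 23.7 in MEF. Its log2 change was -2.12 ± 0.40 in GFP-negative cells (adjusted p = 0.0182) and -4.35 ± 0.35 in ESC (adjusted p = 0.000142). Against MEF, the interferon-induced Rtp4 changed by -2.79 in GFP-negative cells and -2.84 in ESC, and the GTPase Igtp by -1.54 in each. Ifngr2, a chain of the interferon gamma receptor, was at 11.4 and 4.27 RPKM in GFP-negative cells, against 0.291, 0.242 and 0.408 in ESC, and was 2.63 ± 0.38 higher on the log2 scale (adjusted p = 0.00212). The 6 that fell in GFP-negative cells against ESC were Rfx5 (-1.56), Dtx3l (-1.40), Ddx58 (-1.33), Adar (-1.18), Samhd1 (-1.17) and Tyk2 (-1.06). The 1 that rose in ESC against MEF was Pml (1.64). Socs1, a feedback inhibitor of Jak kinases, was at 41.9 RPKM in the colonies and at most 5.47 in the other gene-span libraries.

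Promoter letters and calls were set side by side for the members with both. Of 13 tested members with an ISRE core, 8 fell in ESC against MEF and 7 in GFP-negative cells against MEF, and of 29 without one, 11 and 4 fell. Of 10 tested members with a GAS, 5 and 3 fell, and of 32 without one, 14 and 8 fell. These are counts over few genes, with no test, and 8.92% and 3.09% of all genes fell in these comparisons. Of the members that fell, Gbp3, Ifit1, Oas1a and Oas1g, with an ISRE core, entered the test only through their MEF levels. So did Ifi35, Ifit2 and Irf7, without one. A lower value was built into the selection of all of these. The 6 printed promoters were chosen for carrying a match, so their calls do not compare promoters with and without one. Of the 6 printed promoters, Isg15, Ifit1 and Oas1a, with 3, 2 and 2 ISRE cores, fell in both comparisons, and so did B2m, with 1, and Psmb8, with 0, while H2-T23, with 1, fell in ESC (-2.96) and did not pass in GFP-negative cells (0.78).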

How the data were processed

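The authors deposited 1 table of RPKM (reads per kilobase and per M reads) for 13 libraries. The submitters' processing notes name TopHat 1.3.0 and mm9. For annotation, counting and strand, the tool and settings were not given in the sources used here. Of 15184 rows, 8 that shared an identifier were left out. RPKM times gene span (GENCODE M21, GRCm38, used for lengths) gave whole reads within 0.05 for 82.9 to 85.4% of low values in 10 libraries and 12.0 to 12.8% in the other 3, which were taken as exonic. Depth was read from these steps. Unmeasured genes were listed at 0 in 7 libraries and at 0.001 in 3. No label or header names these as batches, and alternatives treated the split as one.

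Libraries were grouped by their labels. log2(RPKM + 1) was fitted with limma 3.58.1 (R 4.3.3) over the 10 gene-span libraries, with 1 coefficient per group, a trend and Benjamini-Hochberg adjustment. The fit had 5 residual and 3.76 prior degrees of freedom. The script was tested on simulated data. One member is counted but not reported here by name. Single libraries were compared without a test. Alternatives changed the pseudocount, filter, scaling, libraries and model terms. The members, roles and pathway list were chosen with earlier results of these data known. Named genes were those called, those at 10 RPKM or more, or fixed key genes. In untested comparisons they were taken from up to 6 members per direction with the largest difference. Some of these were left out, so the named genes are not always those with the largest difference.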

Additional observations from a re-analysis of the deposited data

How the results depend on the processing

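Of 49 calls of members over the 3 tested comparisons, 25 were kept in every alternative run and 0 changed direction. Kept were 17 of 24 in ESC against MEF, 2 of 12 in GFP-negative cells against MEF (Isg15 and Irf7) and 6 of 13 in GFP-negative cells against ESC. Counts moved as follows. A pseudocount of 0.1 gave 13 members higher in GFP-negative cells against ESC and 12 lower in the clusters against GFP-negative cells. A pseudocount of 0.01 gave 14 and 13 for these, 0 higher in GFP-negative cells against MEF, and 23 higher and 12 lower in the colonies against the clusters. With no filter, 3 were lower in GFP-negative cells against ESC. A filter at 5 RPKM gave 1 higher and 13 lower in ESC against MEF, 6 lower in GFP-negative cells against MEF, 2 lower in GFP-negative cells against ESC, 5 higher in the clusters, 4 lower in the colonies against the clusters and 2 lower in the colonies against ESC, with fewer genes tested. Upper-quartile scaling and quantile normalization each gave 2 higher in GFP-negative cells against MEF and 13 lower in the colonies against the clusters, and quantile normalization gave 2 lower in GFP-negative cells against ESC. The 13-library fit and the 7 libraries with exact 0 alone each gave 2 higher in GFP-negative cells against MEF. Within those 7 libraries, 21 members fell and 3 rose in ESC against MEF, 11 fell in GFP-negative cells against MEF, and 9 rose and 4 fell in GFP-negative cells against ESC. The comparison of the colonies with ESC replicate 3 alone was chosen after seeing the data. The limma fit called 0 higher and 0 lower in CiPSC. Apart from the filter, the cause was not tested.

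Leaving out 1 library at a time gave 1 to 3 members higher and 17 to 21 lower in ESC against MEF, 0 to 1 higher and 3 to 13 lower in GFP-negative cells against MEF, and 6 to 10 higher and 1 to 5 lower in GFP-negative cells against ESC. It gave 7 to 11 higher and 4 to 7 lower in the clusters, 20 to 24 higher and 4 to 5 lower in the colonies against ESC, and 1 and 1 in CiPSC. The lowest count of lower members in GFP-negative cells against MEF, 3, came without GFP-negative replicate 1, and 7 came without MEF replicate 1 or 2. In GFP-negative cells against ESC, 1 was lower without GFP-negative replicate 1 or ESC replicate 1, and 2 without ESC replicate 2 or 3. The clusters had 7 lower without GFP-negative replicate 1. A single higher member in ESC against MEF came without MEF replicate 1 or 2 or ESC replicate 1 or 2, and 0 in GFP-negative cells against MEF without MEF replicate 1 or 2 or GFP-negative replicate 1. Where 1 library was left in a group it is assumed to vary like the others.

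The replicate block gave 2 higher and 24 lower in ESC against MEF, 1 and 10 in GFP-negative cells against MEF, and 9 and 4 in GFP-negative cells against ESC. Differences between replicates 1 and 2 correlated at -0.07, -0.0434 and 0.0842 across genes for these pairs of groups. Across all genes these values give no sign of pairing by replicate number. With 1 difference per group, they cannot exclude a pairing that affects some genes. Depth limits low genes: a floor of 3 reads covers counting error only, and ESC held 0 to 6 estimated reads of Isg15.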
